A study of Mus musculus with 2 samples.

Results

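Wnt proteins are secreted, lipid-bearing ligands that bind Frizzled receptors together with the co-receptors Lrp5 and Lrp6. In the canonical branch this binding stops a destruction complex from breaking down beta-catenin, which then enters the nucleus and activates target genes with factors of the Tcf/Lef family. R-spondins keep Frizzled receptors at the cell surface, secreted inhibitors capture the ligands or their co-receptors, and targets such as Axin2 and Nkd1 feed back on the pathway from inside the cell. In the developing ureter, the epithelium makes Wnt7b and Wnt9b, which act on the surrounding mesenchyme, and in the kidney Wnt9b and Wnt4 act one after the other in nephron formation.

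Genes of this pathway were examined in embryonic mouse ureters (NMRI strain, E18.5). The members were the non-control probes whose array gene name was a numbered Wnt, Fzd, Sfrp, Dkk or Rspo gene, or Wif1, Lrp5, Lrp6, Axin2, Lef1, Tcf7, Nkd1, Nkd2 or Notum. They came to 50 genes of 29923, read by 63 probes of 39429. By role they were 19 ligands, 12 receptors and co-receptors, 4 R-spondins, 10 secreted inhibitors, 3 intracellular feedback inhibitors and 2 nuclear factors.

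Pparg encodes a nuclear receptor that works as a transcription factor in the urothelium, the epithelium that lines the ureter. The Pparg-cKO pools carried Pax2-cre/+; Pparg(fl/fl), and the control pools carried Pparg(fl/?), with the second allele not stated in the labels. Per the study's methods, the cre-negative controls were littermates, the floxed allele loses exons 2 and 3, and Pax2-cre is active in the nephric duct, the ureteric epithelium and the collecting ducts of the kidney. RNA of several ureters of one sex was pooled, and each of 2 two-colour arrays set 1 Pparg-cKO pool against 1 control pool, replicate 1 from female and replicate 2 from male embryos. The dyes were exchanged between the arrays, so sex, dye and array cannot be told apart, and the number of arrays limits the precision.

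All signs here follow the deposited value table, whose columns are titled Pparg-cKO against control. That direction is the likely one, because the study's text and tissue sections run the same way, but the dye labels as written run the opposite way on both arrays. By the dye labels every "higher" and "lower" below would be exchanged, while all sizes and p-values would stay. Signals are in units of the scanner, Pparg-cKO against control, first for the female pair of pools and then for the male pair. Log2 ratios come from background-corrected, loess-normalised signals with 50 units added, so they understate the differences of dim probes. The targeted gene, Pparg, gave a processed signal of 12357 in the Pparg-cKO pool against 6113 in the control pool in the female pair and 12929.6 against 6688 in the male pair. Its mean log2 ratio was 0.97 ± 0.02 (SD, n = 2; limma adjusted p = 0.0373). The position of its probe relative to the deleted exons was not examined, so this value does not check the labels.

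Wnt4 and Wif1 were the members that passed the fold rule described below, and their promoters are shown for that reason. Each line gives the 250 bases before the annotated RefSeq start, 5′ to 3′ on the plus strand of build GRCm38.p6, with CG dinucleotides in capitals. The Wnt4 promoter is chr4:137277385-137277634 and the Wif1 promoter is chr10:121033754-121034003.
Wnt4: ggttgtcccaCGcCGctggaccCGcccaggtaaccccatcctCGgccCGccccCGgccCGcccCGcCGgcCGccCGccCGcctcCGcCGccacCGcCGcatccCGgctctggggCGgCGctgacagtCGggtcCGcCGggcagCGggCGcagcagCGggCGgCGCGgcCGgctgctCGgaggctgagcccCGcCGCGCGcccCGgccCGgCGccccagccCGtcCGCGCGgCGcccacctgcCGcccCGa
Wif1: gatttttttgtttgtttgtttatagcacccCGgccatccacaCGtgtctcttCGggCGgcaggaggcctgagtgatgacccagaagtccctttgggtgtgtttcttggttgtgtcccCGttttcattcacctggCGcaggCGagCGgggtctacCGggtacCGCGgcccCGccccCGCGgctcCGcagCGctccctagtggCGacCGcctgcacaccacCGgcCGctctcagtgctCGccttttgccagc

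These windows differed in composition. The Wnt4 window held 44 CG dinucleotides and 85.2% G or C, and the Wif1 window held 21 and 62.8%. The median of all 32851 mouse promoters in the table, in windows of 300 bases that also take in 50 bases after the start, was 52.7% G or C.

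In the same 300-base windows a search was made on both strands for CTTTGA, the core of the site that Tcf/Lef factors bind, and for AGGTCA, the half-site that PPAR and other nuclear receptors bind. CTTTGA was found in 5 of 40 member promoters (12.5%), those of Dkk1, Fzd1, Lef1, Wnt11 and Wnt5b, and in 16.0% of all promoters. AGGTCA was found in 2 of 40 (5.0%), those of Tcf7 and Wnt16, and in 16.3% of all promoters. The 40 promoters belonged to 33 of the 50 genes. The Wnt4, Wif1 and Nkd1 windows held neither string, which says only that these letters are not in these windows.

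Wnt4 was read by 2 probes. The dimmer one is shown because it joins 2 exons, so that it reads spliced RNA: its 60 bases lie across 569 bases of chr4:136851690-136852258 (build mm9).
Wnt4 junction probe: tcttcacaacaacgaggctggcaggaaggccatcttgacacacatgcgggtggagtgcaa

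Most of the pathway was detected in the E18.5 ureter. Of the 50 genes, 39 were well above background in all 4 pools. Wnt9b, Fzd9 and Dkk1 were above it in 3 pools, Wnt2b and Fzd5 in 2, and Wnt8b in 1. Wnt3, Wnt3a, Wnt8a, Rspo4 and Dkk4 were not well above background in any pool. A gene was tested if each array had at least 1 pool well above background for its probe, as held for 44 of the 50 and for 75.2% of all genes. The study used an intensity threshold whose channel it does not state. Here the brighter pool of each array had to reach a processed signal of 100, as 25 of the 50 members and 14015 of all 29923 genes did. Markers of the labelled tissue were present: all 8 urothelial genes and all 8 genes of ureteric mesenchyme and smooth muscle that were listed passed both limits.

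The fold rule, modelled on the study's filter, asked each array for a difference of 1.5-fold or more, in 1 direction, besides the signal of 100. Of the 25 members bright enough, 2 passed, Wnt4 and Wif1, both higher in Pparg-cKO, and 0 were lower. Of all 14015 genes bright enough, 1.84% passed in either direction, 0.792% higher and 1.05% lower. In limma, which tests the mean of the 2 log2 ratios, 0 of the 44 members passed an adjusted p of 0.05, beside 0.751% of 22499 genes, 0.382% higher and 0.369% lower. At an unadjusted p under 0.05 there were 8 members, Wnt4, Wif1, Wnt9b, Wnt5a, Axin2, Fzd7, Tcf7 and Nkd1, and 8.51% of all genes.

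Signs were more often higher than lower. On both arrays 20 of 44 members (45.5%) were above 0 and 7 (15.9%) below 0, beside 26.6% and 26.2% of all genes tested. The median of the members' mean log2 ratios was 0.14, and that of all genes was 0.01. Mean log2 ratios of the members ran from -0.47 for Wnt5a to 1.21 for Wnt4. In bulk RNA, fewer cells of a type and less RNA per cell cannot be told apart.

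**Figure D1:**
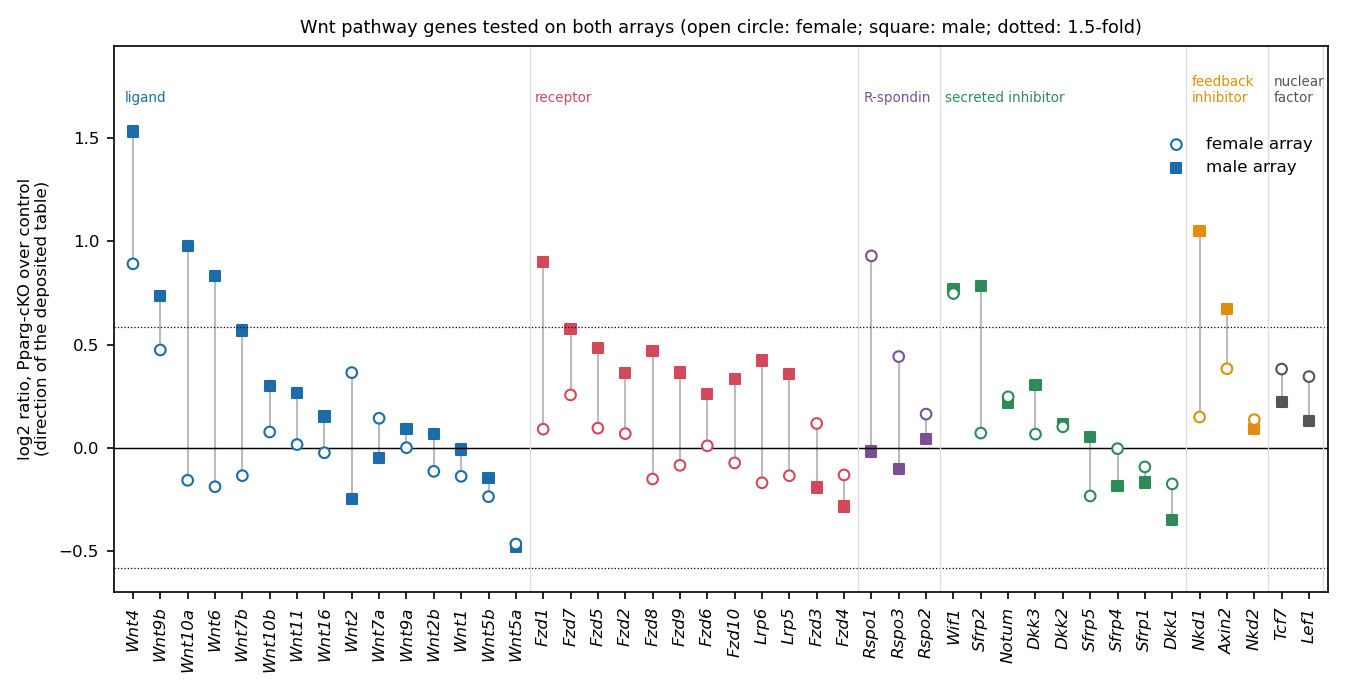
Log2 ratio of Pparg-cKO over control for the 44 members tested, on the female array (open circles) and the male array (filled squares), grouped by role, with a grey line joining the arrays and dotted lines at 1.5-fold. Wnt4 and Wif1 lie above the upper dotted line on both arrays, and Wnt5a is the lowest member, between the dotted lines.

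Among the ligands, Wnt4 passed the fold rule and had the largest mean log2 ratio with the offset of 50. The dim Wnt9b had a larger one in the scanner-processed signals and the deposited values. Its male control pool was not well above background, so that rank is uncertain. The brighter Wnt4 probe gave 718 in the Pparg-cKO pool against 392 in the control pool in the female pair and 1588 against 537 in the male pair. Both Pparg-cKO pools were above both control pools. The log2 ratios were 0.89 and 1.53, with a mean of 1.21 ± 0.45 (SD, n = 2), which is 2.32-fold. The junction probe gave 224 against 140.0 and 459 against 170.03, with log2 ratios of 0.52 and 1.46. That probe missed 1.5-fold on the female array. The limma adjusted p of the brighter probe was 0.0853. Wnt4 passed the test when no offset was added to the background-corrected signals (adjusted p = 0.00187) or when the arrays were centred on their median in place of the loess curve (adjusted p = 0.0446). Over all settings its adjusted p ran from 0.00187 to 0.533, and it passed the fold rule in 6 of 6.

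Wnt9b, the ligand of the ureteric epithelium, was dim. It gave 15.1 against 5.88 in the female pair and 22.7 against 7.26 in the male pair, so the Pparg-cKO pool was the higher one in each pair. The male control pool was not well above background. Its mean log2 ratio was 0.60 ± 0.18 (SD, n = 2; limma adjusted p = 0.181). This value rests on the offset of 50 signal units, which draws the ratios of dim probes towards 0: over the 6 settings the mean ran from 0.60 to 1.55 and the adjusted p from 0.00350 to 0.533, the lowest p without the offset. Wnt9b was too dim for the fold rule.

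Wnt5a, which signals mainly outside the beta-catenin branch, was the ligand with the largest difference in the opposite direction. It gave 134 against 181 in the female pair and 106.9 against 167 in the male pair. Both Pparg-cKO pools were below both control pools, and the arrays were close, at -0.47 and -0.48. The mean was -0.47 ± 0.01 (SD, n = 2), short of 1.5-fold, with a limma adjusted p of 0.233. Wnt5b, its closest relative, gave 446 against 537 and 437 against 478, with log2 ratios of -0.24 and -0.15.

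The other ligands were split. Wnt10b and Wnt11, the latter known from the tips of the branching ureteric bud, were above 0 on both arrays, with means of 0.19 and 0.14, and Wnt1 was below 0 on both, with a mean of -0.07. The other 8 tested ligands differed in sign between the arrays on the probe used. Wnt16, among them, was above 0 on both arrays on its second probe, at 0.32 and 0.30. Of the 8, Wnt10a, Wnt6 and Wnt7b were chosen after their values were seen, because they share a pattern. Wnt10a gave 71.8 against 86.4 in the female pair and 179 against 81.2 in the male pair. Wnt6 gave 82.0 against 93.8 and 192 against 97.0. Wnt7b, the other ligand of the ureteric epithelium, gave 71.3 against 78.1 and 116 against 70.3. In all 3 the male Pparg-cKO pool stood above the other 3 pools. Their log2 ratios were -0.16, -0.19 and -0.14 for the female pair and 0.98, 0.83 and 0.57 for the male pair, with limma adjusted p-values of 0.786, 0.825 and 0.858. Over the 15 ligands tested, the median of the mean log2 ratios was 0.06, with 4 above and 3 below 0 on both arrays.

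**Figure D2:**
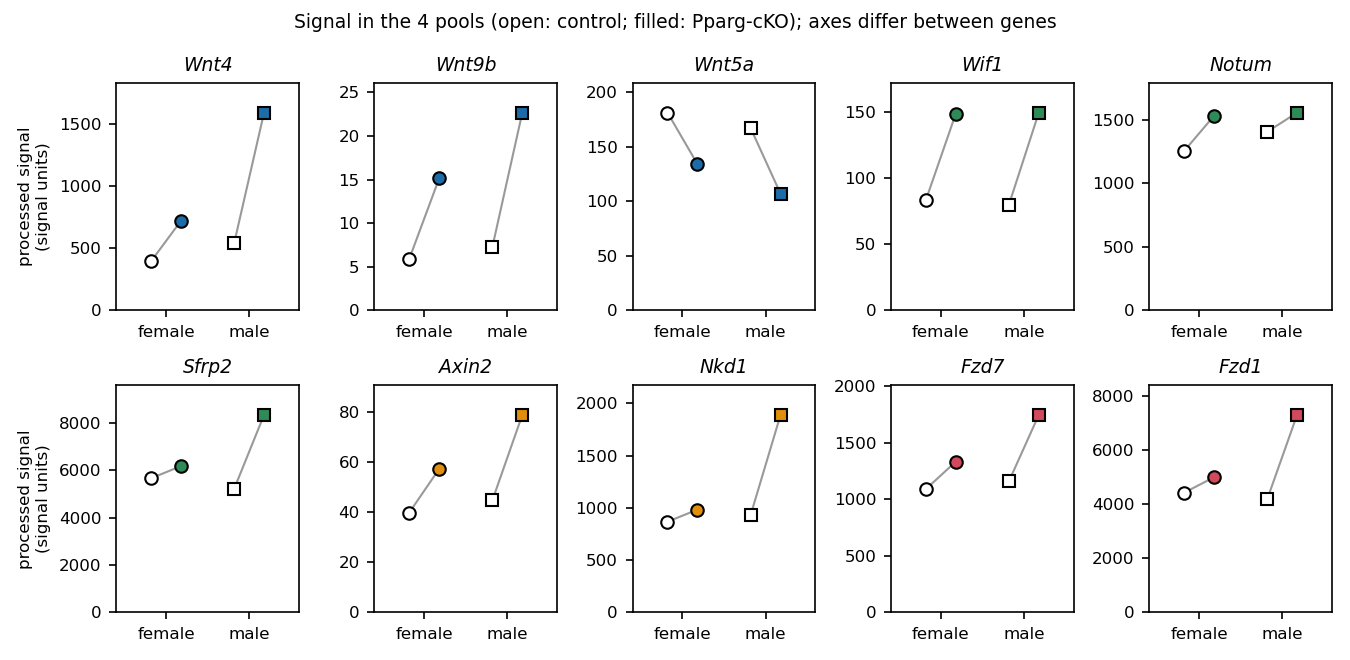
Processed signal of 10 members in the control pool (open) and the Pparg-cKO pool (filled) of the female array (circles) and the male array (squares), each gene on its own axis from 0. Wnt4, Wnt9b, Wif1 and Axin2 have the filled point above the open one by a wide step on both arrays, Wnt5a has it below on both, and Nkd1, Fzd1 and Sfrp2 have the wide step on the male array.

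Of the 12 receptors, 5 were above 0 on both arrays, Fzd1, Fzd2, Fzd5, Fzd6 and Fzd7, and Fzd4 was below 0 on both. The median of their mean log2 ratios was 0.14. Fzd1 gave 4998 against 4424 in the female pair and 7306 against 4177 in the male pair. Its log2 ratios were 0.09 and 0.90, so the difference lay mostly on the male array, and the mean was 0.50 ± 0.57 (SD, n = 2; limma adjusted p = 0.630). Fzd7 gave 1333 against 1089.7 and 1747 against 1159, with a mean of 0.42 ± 0.23 (SD, n = 2; limma adjusted p = 0.431). The second, dimmer Fzd7 probe had log2 ratios of 0.05 and 0.25. Fzd5 was near background in every pool, between 4.74 and 14.9, and its 2 probes disagreed in sign. Over the 6 settings the mean log2 ratio of Fzd5 ran from 0.13 to 1.00. Fzd4 gave 463 against 529 and 448 against 554, with a mean of -0.21 ± 0.11 (SD, n = 2).

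The co-receptors Lrp5 and Lrp6 were alike in their values. Lrp5 had log2 ratios of -0.14 and 0.36, and Lrp6 had -0.17 and 0.42. Fzd8, Fzd9 and Fzd10 had the same split, slightly below 0 for the female pair and between 0.33 and 0.47 for the male pair, while Fzd3 had 0.12 and -0.19. No receptor passed 1.5-fold on both arrays.

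Of the R-spondins, Rspo1 and Rspo3 were above 0 on the female array and slightly below 0 on the male array. Rspo2 was above 0 on both, and with median centring all 3 were. Rspo1, which with its relatives binds Lgr receptors and so spares Frizzled receptors from removal, gave 138 against 63.8 in the female pair and 82.0 against 87.0 in the male pair. The female Pparg-cKO pool stood apart from the other 3. Its log2 ratios were 0.93 and -0.02, with a mean of 0.46 ± 0.67 (SD, n = 2; limma adjusted p = 0.710). Rspo3 gave 516 against 370.03 and 456 against 487, with log2 ratios of 0.44 and -0.10. Rspo2 was dim, between 11.2 and 14.5 in the 4 pools, with log2 ratios of 0.16 and 0.04.

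Among the secreted inhibitors, Wif1 passed the fold rule. Wif1 binds Wnt ligands outside the cell and keeps them from their receptors. It gave 149 against 83.2 in the female pair and 149.9 against 80.0 in the male pair. The Pparg-cKO pools were nearly equal to each other and above both control pools. The log2 ratios were 0.75 and 0.77, with a mean of 0.76 ± 0.02 (SD, n = 2), which is 1.69-fold, and the limma adjusted p was 0.0687. It passed the test without the offset (adjusted p = 0.00856), its adjusted p ran from 0.00856 to 0.533 over all settings, and it passed the fold rule in 6 of 6.

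Sfrp2, a soluble protein with a Frizzled-like domain, was bright. It gave 6175 against 5661 in the female pair and 8339 against 5213 in the male pair. Its log2 ratios were 0.07 and 0.78, with a mean of 0.43 ± 0.50 (SD, n = 2; limma adjusted p = 0.651). Sfrp1 and Sfrp4, of the same family, were slightly below 0 on both arrays, with means of -0.13 and -0.10, and Sfrp5 had -0.23 and 0.05. Dkk1, which blocks Lrp5 and Lrp6, was close to background. It gave 6.70 against 10.9 and 7.05 against 13.5, with a mean log2 ratio of -0.26 ± 0.13 (SD, n = 2; limma adjusted p = 0.624). The female Pparg-cKO pool was not well above background, and over the 6 settings the mean ran from -0.85 to -0.26. Dkk2 and Dkk3 were bright and slightly above 0, with means of 0.11 and 0.18. Notum, an enzyme that takes the lipid off Wnt proteins, gave 1528 against 1251 and 1554 against 1403, with log2 ratios of 0.25 and 0.22. Over the 9 secreted inhibitors tested, 5 were above and 3 below 0 on both arrays, and the median was 0.11.

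All 3 intracellular feedback inhibitors were above 0 on both arrays, and this held in each of the 6 settings. Axin2, a scaffold of the destruction complex and a widely used readout of beta-catenin activity, gave 57.2 against 39.8 in the female pair and 78.8 against 44.7 in the male pair. Its mean log2 ratio was 0.53 ± 0.20 (SD, n = 2; limma adjusted p = 0.264), and it was too dim for the fold rule. Its other probe was not detected, and the mean over both probes was 0.29. Nkd1, which binds Dishevelled, gave 983 against 868 and 1889.9 against 932, with log2 ratios of 0.15 and 1.05 and a mean of 0.60 ± 0.64 (SD, n = 2; limma adjusted p = 0.574). The male Pparg-cKO pool stood apart from the other 3 on this probe. The second Nkd1 probe, dimmer and singled out after its values were seen, gave 107.6 against 67.0 and 164 against 88.9. Its log2 ratios of 0.61 and 0.76 were past 1.5-fold on both arrays. Nkd2 gave 2529 against 2317 and 2512 against 2410.01, with log2 ratios of 0.14 and 0.09, and 0.09 and 0.51 on its second probe.

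Both nuclear factors were above 0 on both arrays in each of the 6 settings. Tcf7 gave 309 against 241 in the female pair and 361 against 305 in the male pair, with a mean log2 ratio of 0.30 ± 0.11 (SD, n = 2; limma adjusted p = 0.550). Lef1 gave 97.8 against 70.7 and 119 against 112, with a mean of 0.24 ± 0.15 (SD, n = 2; limma adjusted p = 0.675). In both genes the Pparg-cKO pool was the higher one of each pair, and the step was wider on the female array.

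**Figure D3:**
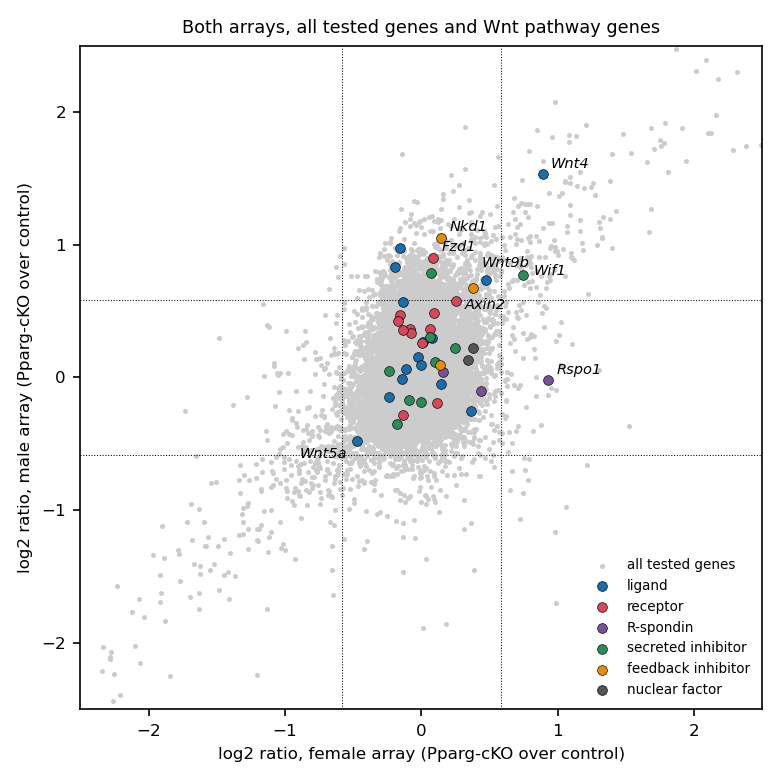
Log2 ratio on the female array against that on the male array for all 22499 genes tested (grey) and the members by role (coloured), with dotted lines at 1.5-fold. Wnt4 and Wif1 lie in the upper right corner beyond both lines, most other members lie near the centre and upwards of it, and 19 genes lie outside the axes.

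The arrays agreed in sign for 61.4% of the 44 members and for 52.8% of all genes tested. Across the members, which share pools and arrays, Pearson's r between the arrays was 0.33 and Spearman's rho was 0.18. Across all genes tested they were 0.45 and 0.15. On the female array alone, 2 of 25 bright members (8%) were past 1.5-fold, Wnt4 and Wif1, both higher, beside 3.05% of all bright genes (1.2% higher). On the male array alone, 5 of 25 (20%) were, Wnt4, Nkd1, Fzd1, Sfrp2 and Wif1, all higher, beside 8.25% of all bright genes (6.3% higher). Past 1.2-fold on each array in opposite directions there were 0 of 44 members, beside 1.38% of all genes tested. The median log2 ratio of the members was 0.07 for the female pair and 0.24 for the male pair, while that of all genes was -0.01 and 0.01. Centring the arrays on their median in place of the loess curve put the median of all genes at -0.02 and 0.10 on the 2 arrays, and that of the members at 0.03 and 0.35.

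Markers of the epithelium also differed between the arrays. Of 9 listed epithelial genes, which include Cdh1, Epcam and Krt19, 6 were above 0 on both arrays and 2 below. Their median log2 ratio was 0.12 for the female and 0.52 for the male pair, and their summed signal was 41782 in the Pparg-cKO pool against 48294 in the control pool in the female pair and 56388 against 41779.5 in the male pair. Cdh1, the epithelial cadherin, singled out after its values were seen, had log2 ratios of 0.07 and 1.10, while Krt18, the lowest of the 9, had -1.04 and -0.54. The 8 urothelial genes had medians of -0.63 and -0.23, and 5 were below 0 on both arrays. The 8 genes of mesenchyme and smooth muscle had medians of -0.08 and -0.08, with summed signals of 134974 against 141846 and 143624 against 136107. None of the listed genes of these groups was at 0. The part of these differences in the values of the Wnt pathway genes was not tested.

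Wnt4 and Wnt9b are also known from the kidney and the gonad, so genes of those tissues are given beside them. Of 12 listed nephron genes, 9 were tested, with medians of -0.0024 for the female and -0.14 for the male pair, and 1 was above and 5 below 0 on both. Their summed signal was 4838 against 4411 in the female pair and 4655 against 5200.1 in the male pair. Of 6 collecting duct genes, 4 were above and 1 below 0 on both arrays, with medians of 0.11 and 0.44. Among them Fxyd4 rose, with a mean log2 ratio of 2.38 ± 0.21 (SD, n = 2; limma adjusted p = 0.00620), while Aqp2, the water channel that defines the collecting duct, had -0.12 and -0.17. The summed signal of those 6 genes was 726 against 237 and 829.7 against 260.4, of which Fxyd4 gave 536 against 77.4 and 596 against 109. Of 8 gonad and adrenal genes, 7 were tested, with medians of 0.08 and -0.03 and summed signals of 1250.2 against 1116 and 1026 against 1191. Their part in the Wnt4 and Wnt9b values was not tested.

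Genes with 2 probes gave a check within the arrays. Of 13 such members, both probes were detected in 10, and in 9 of these the mean log2 ratio had the same sign on both probes. The exception was Fzd5, at 0.29 and -0.02. The median gap between the means of the 2 probes was 0.14. The widest gaps among these 10 were those of Fzd5 at 0.31, Fzd7 at 0.27 and Wnt16 at 0.25. Wnt4, Nkd1, Tcf7 and Lef1 were above 0 on both probes on both arrays.

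The wider pathway was read through 72 genes outside the rule, arranged in lists by role, of which 68 were tested and 51 were bright enough. The fold rule was passed by 2, Rnf43 and Tnfrsf19, both higher, and limma called 0 of 68, with 12 at an unadjusted p under 0.05. The shares of all genes were 1.84% by the fold rule, 0.751% in limma and 8.51% at that unadjusted p. In 3 of the 6 settings Dkkl1 passed the fold rule as well, lower in Pparg-cKO. On both arrays 26 of 68 (38.2%) were above 0 and 7 (10.3%) below, beside 26.6% and 26.2% of all genes. The median of their mean log2 ratios was 0.15.

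Rnf43, a ubiquitin ligase that removes Frizzled receptors from the surface and is itself a target of the pathway, gave 434 against 270.3 in the female pair and 759 against 335 in the male pair. Both Pparg-cKO pools were above both control pools. Its log2 ratios were 0.64 and 1.16, and its mean was 0.90 ± 0.37 (SD, n = 2; limma adjusted p = 0.135, and 0.00996 to 0.533 over all settings). Tnfrsf19, a receptor known as a beta-catenin target, gave 1065 against 599 and 1191 against 706. Again both Pparg-cKO pools were above both control pools. Its log2 ratios were 0.73 and 0.83, and its mean was 0.78 ± 0.07 (SD, n = 2; limma adjusted p = 0.0685, and 0.0135 to 0.533 over all settings). Rnf43, but not Tnfrsf19, missed the fold rule in 1 of the 6 settings.

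In the other lists, values were smaller or differed between the arrays. Among the surface receptors, Lgr6, a receptor for R-spondins, had log2 ratios of -0.24 and -0.57. For the secretion of Wnt proteins, Wls, the carrier that takes Wnt ligands to the surface, gave 3725 against 2865 and 4018 against 3021, with log2 ratios of 0.36 and 0.49 (limma adjusted p = 0.323), and Porcn, the enzyme that adds the lipid, had 0.18 and -0.13. Among the secreted modulators, Dkkl1 had -0.81 and -0.55 and Sostdc1, an inhibitor of BMP and Wnt signals, had 0.68 and 0.29.

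The destruction complex list had a median of 0.12, with the largest means in Dact2, at 0.20 and 0.70, and Gsk3a, at -0.18 and 0.96. Among the nuclear partners of beta-catenin, 8 of 13 were above 0 on both arrays and 0 were below. Tcf7l1 had -0.09 and 0.91 and Tcf7l2 had 0.31 and 0.39, and the median of that list was 0.21. In the planar polarity branch, Celsr2 had 0.46 and 1.06 and Celsr1 had 0.10 and 0.91. Among the other targets, 3 of the 8 tested were above and 2 below 0 on both arrays, the median was 0.02, and Msx2 had -0.47 and -0.14. Of the targets most often quoted, Ccnd1 had 0.08 and 0.27 and Myc had -0.14 and 0.59. Sp5, also in that list, was below 0 on both arrays in all 6 settings, with a mean between -0.88 and -0.24.

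**Figure D4:**
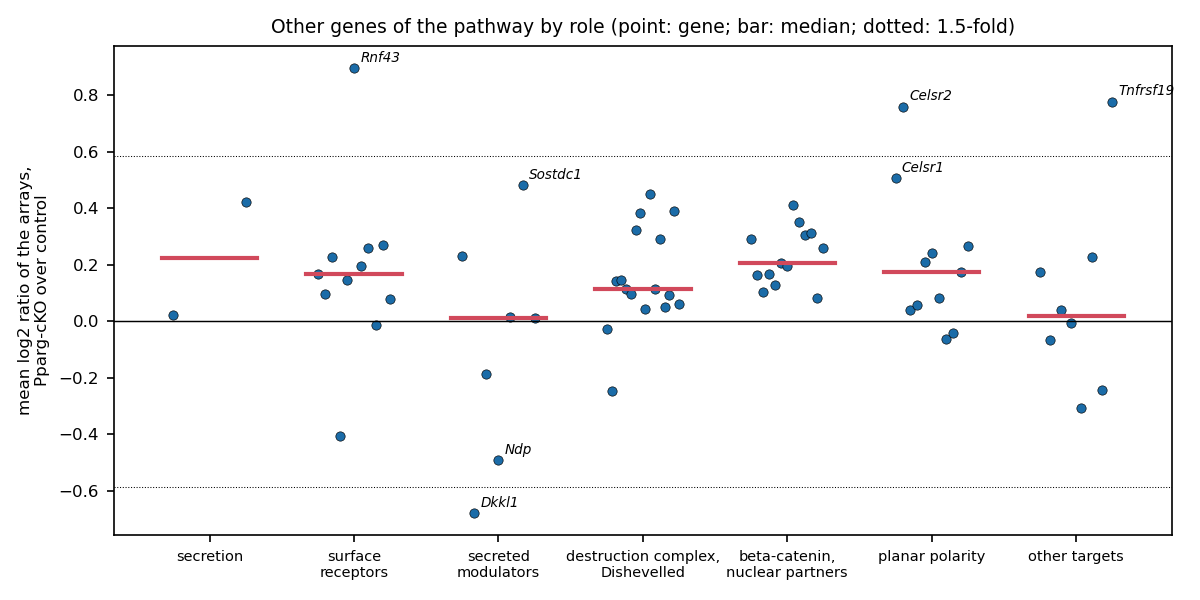
Mean log2 ratio of the 2 arrays, Pparg-cKO over control, for 68 tested pathway genes outside the rule (points) in 7 lists by role, with list medians as bars and dotted lines at 1.5-fold. Rnf43 and Tnfrsf19 lie above the upper line and passed on both arrays, Celsr2 lies above it and Dkkl1 below the lower line by their means, and the medians of the lists lie between 0.01 and 0.22.

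The size of the main differences was set against the way the arrays were processed. For Wnt4 the mean log2 ratio lay between 1.10 and 1.29 over 6 settings, for Wif1 between 0.76 and 0.88, for Nkd1 between 0.60 and 0.66, for Axin2 between 0.29 and 0.67, and for Wnt5a between -0.54 and -0.39. Wnt4, Wif1, Wnt9b, Nkd1 and Axin2 were above 0 and Wnt5a below 0 on both arrays in all 6.

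**Figure D5:**
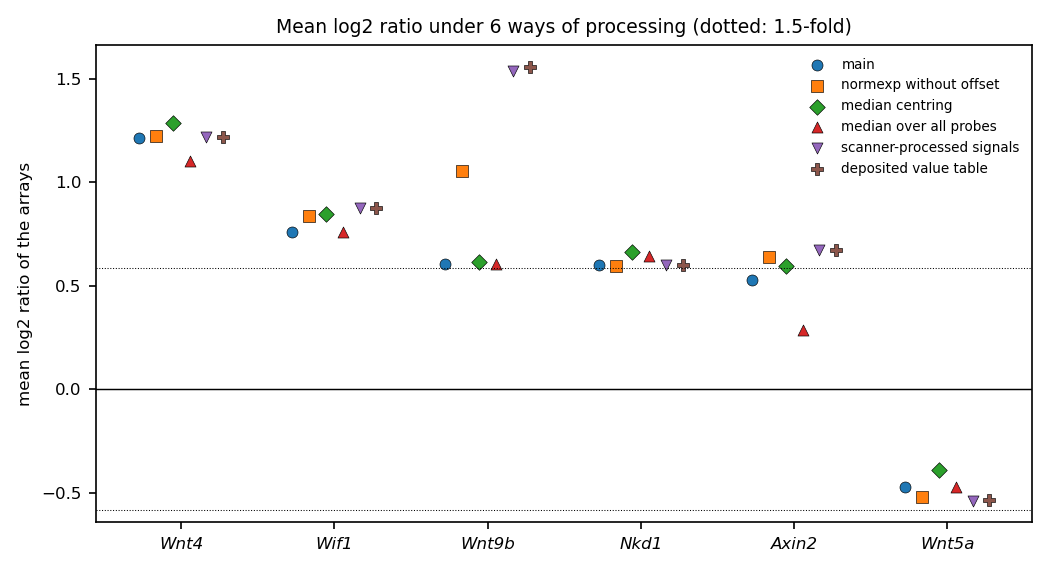
Mean log2 ratio of the 2 arrays for 6 members under 6 ways of processing: the reported one (main), no offset, median centring, the median over all probes, the scanner's processed signals and the deposited value table, with dotted lines at 1.5-fold. Wnt4 and Wif1 lie above the upper line in all 6, and Wnt9b has the widest spread, from 0.60 to 1.55.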

How the data were processed

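The members and the gene lists were chosen with earlier results of these data known. Spot intensity, per the file headers, came as mean signal, median background and a processed signal that Agilent Feature Extraction 10.7.3.1 had background-corrected and dye-normalised. The authors' deposited value table held a signed fold change per probe and array. Intensity was corrected with normexp (offset 50) and, with control spots at weight 0, loess-normalised within arrays (limma 3.58.1, R 4.3.3). Outlier spots (2.87% and 3.24%) were left out, the remaining spots of the 4 per probe were averaged, and a gene was read by its brightest probe. Median signals were 293 to 334, and 0 spots were saturated. Signs followed the table: its correlation with log2 red over green was 0.91 (female array) and -0.93 (male array). The limma test, two-sided, had 1 residual degree of freedom plus a prior of 4.00, with Benjamini-Hochberg adjustment over 22499 genes. It was tested on simulated data with known fold changes, which cannot separate sex, dye and array here. No label says that the pools are separate litters, so p-values rest on the spread between these arrays only. In limma the prior draws that spread towards the one typical of all genes tested. The fold rule was modelled on the study's filter, with its threshold applied to the brighter channel. All members past it were described in full, with the 3 largest mean differences of each role, and of other lists the 2 largest. Alternatives were no offset, median centring, scanner-processed signals, the table, the median over probes, a signal of 50, a 2-fold limit, no filter on dim probes and 1 array at a time. All 50 members matched RefSeq names, and 1 probe had no kept spot.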

Additional observations from a re-analysis of the deposited data

Results flagged for a closer look

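Tle3, a corepressor that binds Tcf/Lef factors and is not one of the 50 members, had a log2 ratio of -0.27 for the female pair of pools and 0.43 for the male pair, a difference of 0.70. It stands here because it was past 1.2-fold on each array in opposite directions, as were 310 of 22499 genes tested (1.38%) and 0 of the 44 members. The difference was not tested, since each sex had 1 array and sex, dye and array cannot be told apart.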

How the results depend on the processing

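Each result was computed again under the alternatives named in the methods. The 2 members past the fold rule, Wnt4 and Wif1, both passed again in every setting but a limit of 2-fold, where 0 members, 112 of all genes and 0 of the other pathway genes passed. With 1 array left out, on the remaining array's own signal, the counts were 3 to 7 members, 444 to 1253 of all genes and 4 to 11 other pathway genes, the higher number each time without the female array. Median centring left 1 other pathway gene past the fold rule, Tnfrsf19, and 217 of all genes. Dkkl1, lower, passed it without the offset, with scanner-processed signals and with the deposited values. In limma, where 0 members were called, 3 members were called without the offset, Wnt4, Wif1 and Wnt9b, and 1 with median centring, Wnt4, where 173 of all genes were called. Without the offset 571 of all genes and 4 other pathway genes were called (Rnf43, Tnfrsf19 and Celsr2 higher, Dkkl1 lower), with the deposited values 0 of all genes (2101 at an unadjusted p under 0.05), and without the filter on dim probes 94. Genes past 1.2-fold in opposite directions, counted under alternatives chosen after seeing the data, numbered 0 members, 310 of all genes and 1 other pathway gene. Without the offset there were 1 member (Wnt2) and 557 of all genes, with median centring 1082 and 3 pathway genes, with scanner-processed signals 3 members, 1124 and 4 pathway genes, and with the deposited values 3 members, 682 and 3 pathway genes. The cause was not tested. The test was already paired, since each array gave 1 ratio of a Pparg-cKO pool over its control pool. Signal over background limits Wnt9b, Dkk1 and Fzd5.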
